A study of Mus musculus with 4 samples.

Results

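Interferon response genes and interferon regulatory factors (IRFs) were read out in mouse embryonic stem cells. The 36 genes were taken from the deposited table of 46603 genes by symbol, 1 gene ID each, and grouped as 4 sensors and adaptors, 4 receptors, 8 STAT and IRF factors and 20 effectors. All 36 had counts, and all had a mean of at least 10 normalized counts. A normalized count is a read count divided by the size factor of its library. Polyadenylated RNA was sequenced from 2 wild-type cultures, Gsk3a+/+;Gsk3b+/+, and from 2 cultures without either gene for glycogen synthase kinase 3, Gsk3a-/-;Gsk3b-/-. All were grown in serum and leukaemia inhibitory factor (LIF) over a layer of irradiated embryonic fibroblasts, so fibroblast RNA can be present in each library. The sample labels give embryonic day 16 for all 4, whereas the design text names another day, and neither the alleles nor the number of clones per genotype is described. The table names its groups A and B, and no source used here says which genotype is which, so every comparison is stated as group B over group A. The values of the single libraries, called A1, A2, B1 and B2, were recovered from the group means, and their order is arbitrary and unrelated to replicate numbering in the labels.

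Cells sense viral RNA with the helicases RIG-I (Ddx58) and MDA5 (Ifih1), which signal through the adaptor Mavs and the kinase Tbk1 to Irf3 and Irf7. These factors switch on interferons, which act through the Ifnar and Ifngr receptors and a complex that holds Stat2 and Irf9 on genes with an interferon-stimulated response element (ISRE). Pluripotent cells are known to respond weakly to interferon while keeping some of its target genes, the Ifitm genes among them, expressed without it.

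The libraries held 112655210 to 146326307 counts, so counting error is small for all but the scarcest members, and the precision is set by how far the 2 libraries of each group lie apart. Nothing in the labels ties the 2 samples of a genotype to separate lines or days, so p-values measure only the spread between these samples. Gsk3a had normalized counts of 6353 and 7104 in A1 and A2 and 1697 and 1347 in B1 and B2, and Gsk3b had 5438, 6285, 5051 and 5002. Pluripotency markers were abundant in every library, with Pou5f1 between 93404 and 125786. The B libraries stood apart from each other. Summed normalized counts of 22 feeder fibroblast markers were 49068 in B1 and 243926 in B2, against 173281 in A1 and 85341 in A2, and B1 was the lowest library for all 22. Summed counts of 17 endoderm markers were 361507 in B1, 177113 in B2, 98699 in A1 and 78278 in A2, and B1 was the highest library for 13 of them. In 10 of the 17 B1 and B2 were each higher than A1 and A2, and in 1 each was lower (0 called in the authors' deposited table, 9 higher and 1 lower there at an unadjusted p under 0.05, and 4 called higher by limma). Of 20 macrophage markers 15 were higher in both B libraries than in both A libraries and 3 were lower in both. The authors' deposited table called 6 of the 20 higher and 1 lower, and limma called 2 higher and 0 lower. Their summed counts were 22587 in B1, 30160 in B2, 28487 in A1 and 29974 in A2. Over all genes, 26.4% were higher and 26% lower in both B libraries. The authors' test called 1.54% of all genes higher and 1.92% lower (5.11% and 5.41% at an unadjusted p under 0.05), and limma 0.977% and 1.03%. None of these marker genes was at 0 across the libraries.

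**Figure D1:**
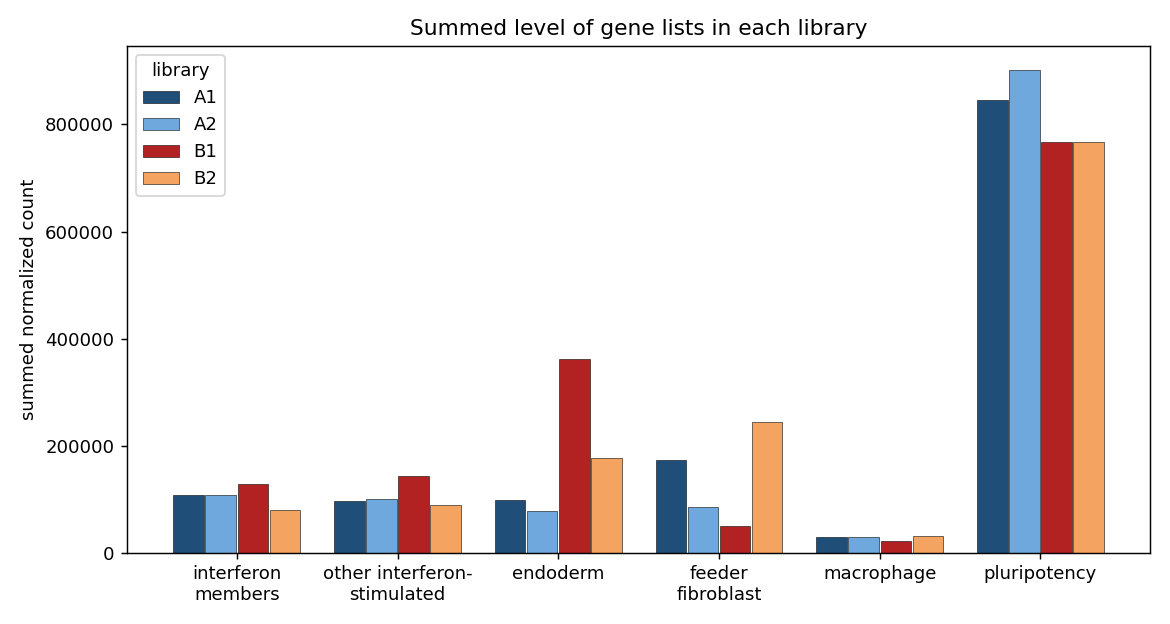
Bars give the summed normalized count of each gene list in libraries A1, A2, B1 and B2, with no error bar because each bar is 1 library. Endoderm markers reach 361507 in B1, feeder fibroblast markers reach 243926 in B2, and the sum of the 36 interferon response genes lies between 79487 and 128908.

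The clear difference between the groups was a lower level of the 3 listed Ifitm genes in group B. Ifitm1, Ifitm2 and Ifitm3, which encode membrane proteins that block the entry of viruses into cells, were the 3 of 36 members past an adjusted p of 0.05 in the authors' deposited table. Over all 30237 genes tested there, 3.46% were called, 1.92% lower and 1.54% higher. Limma, a linear model fitted to the recovered counts, called Ifitm1 and Ifitm2 lower, where 1.03% of its 20465 genes were. No member was called higher by the authors' DESeq test or by limma, where 0.977% of all genes were. At an unadjusted p of 0.05 in the authors' deposited table, 7 members were higher (Ifih1, Irf3, Stat2, Isg15, Isg20, Ifit1 and Ifit3) and the same 3 Ifitm genes lower, where 5.11% and 5.41% of all genes were.

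Most of the other members lay above group A on average, with a spread that the test did not resolve. By the authors' deposited table the log2 fold change exceeded 0 in 28 of 36 members, with a median of 0.44, against a median of 0.01 across the 20465 genes whose mean reached 10. It was above 1 for 9 members and below -1 for 1, where 4.93% and 5.03% of all genes were. In 17 members B1 and B2 were each higher than A1 and A2, and in 6 each was lower, against 26.4% and 26% of all genes. The remaining 13 members overlapped between the groups.

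The height of a B library over group A differed between B1 and B2. B1 was the highest of the 4 libraries for 22 of the 36 members, against 27.4% of all genes. In 10 members B1 was more than 2 times B2, against 4% of all genes. These were Usp18, Irf7, Oasl2, Oas1a, Xaf1, Bst2, Eif2ak2, Parp14, Mx2 and Irf9. B2 was more than 2 times B1 in 2 members, Irf2 and Irf8, and in 1314 of the 20465 genes whose mean reached 10. The median log2 ratio of a member to the mean of group A was 0.76 for B1 and 0.31 for B2. Library B1 was also the one with the highest endoderm and the lowest feeder fibroblast sums given above, and the part of either in these values was not tested. In bulk RNA, fewer cells of a type and less RNA per cell cannot be told apart.

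**Figure D2:**
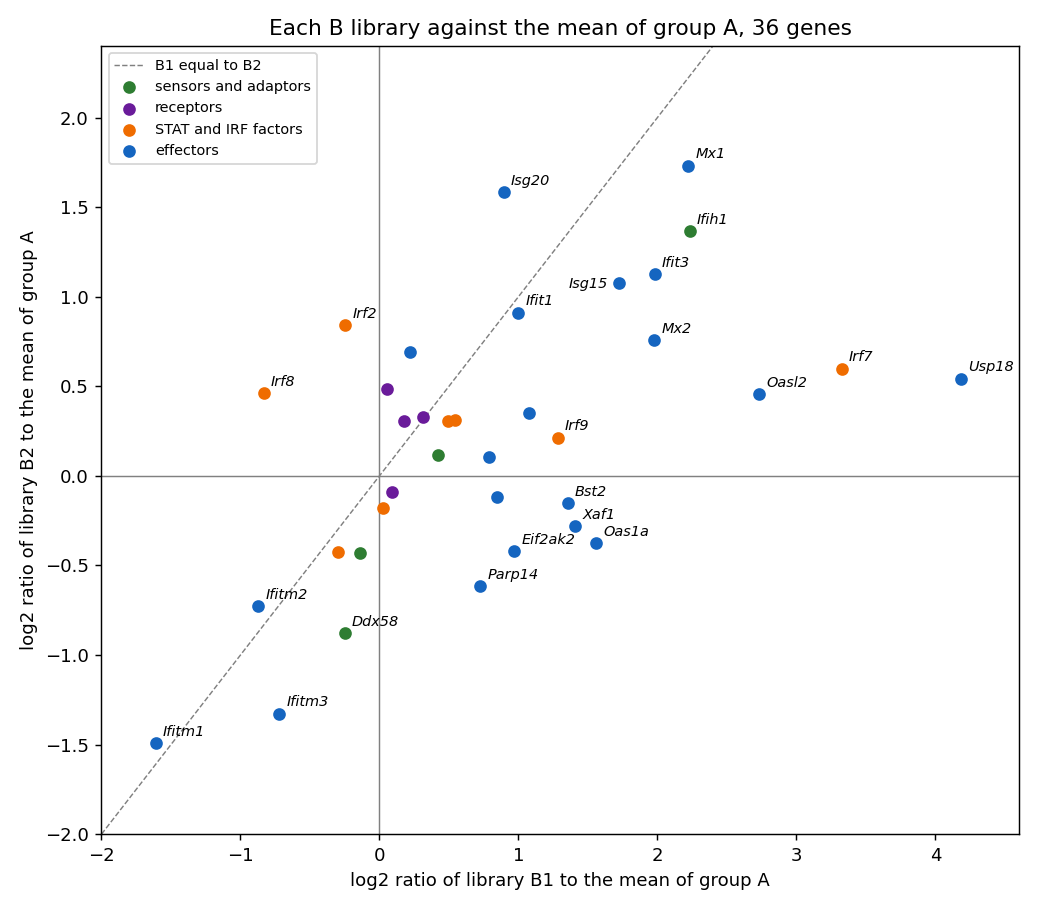
Each point is 1 of the 36 genes, placed by the log2 ratio of library B1 (horizontal axis) and of library B2 (vertical axis) to the mean of group A, and coloured by role. The 3 Ifitm genes lie below 0 on both axes, while Usp18, Irf7 and Oasl2 lie far to the right of the dashed line of equal values and little above 0 on the vertical axis.

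Levels can be compared between genes only per length, here as normalized counts per kilobase of merged exons. On that scale Ifitm2 was the highest member, with 40755 and 44363 in A1 and A2 and 23268 and 25745 in B1 and B2. Ifitm3 followed (6719 to 17120), then Bst2, a membrane protein that tethers budding viruses (6533 to 18548), and Ifitm1 (2241 to 7187). The scarcest was Mx1, a GTPase that acts against influenza virus, at 1.31 to 7.02 per kilobase. Ifih1 was next at 1.33 to 13.5, well below the other RNA helicase, Ddx58, at 802 to 1500. Effectors thus spanned the whole range, and the receptors, at 155 to 894, sat in its middle.

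**Figure D3:**
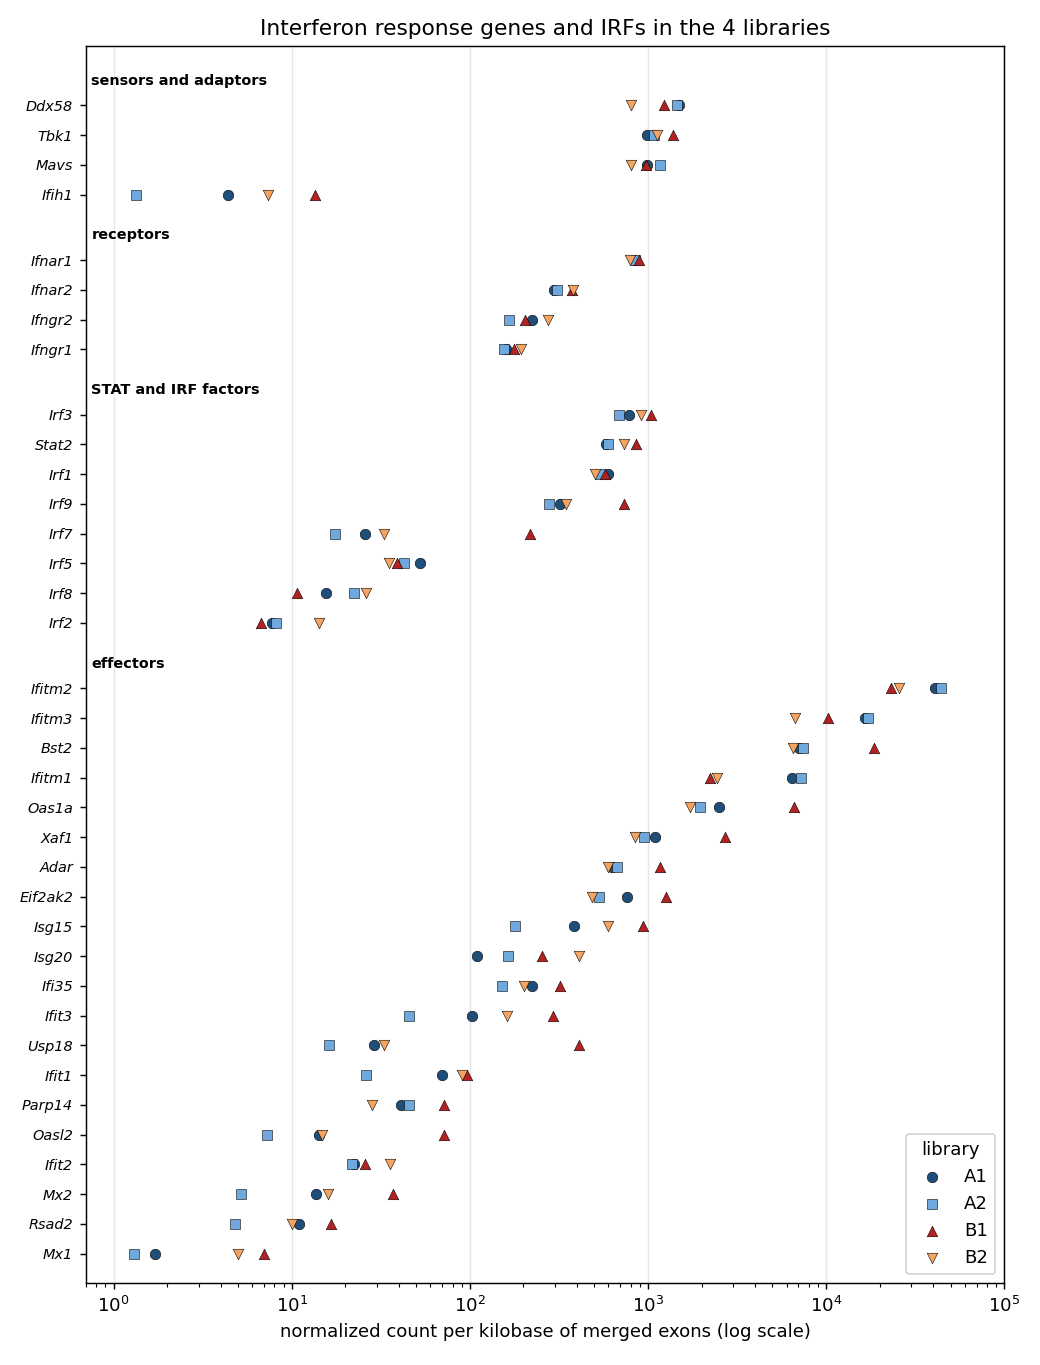
Points give the normalized count per kilobase of merged exons, on a log axis, of each gene in libraries A1, A2, B1 and B2, sorted within roles by the mean. In Ifitm1, Ifitm2 and Ifitm3 both B libraries lie left of both A libraries, and in 22 genes B1 is the rightmost point.

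Among sensors and adaptors, 0 of 4 members passed in either direction, by the authors' DESeq test (1 at an unadjusted p under 0.05) or by limma with all libraries. Ddx58 had normalized counts of 10575 and 10209 in A1 and A2 and 8731 and 5656 in B1 and B2. Both B libraries were lower, B2 more so, and the log2 fold change was -0.53 (adjusted p 0.502, unadjusted p 0.0553, authors' deposited table). In limma it was -0.56 with all libraries (adjusted p 0.206), -0.88 without B1 (adjusted p 0.0202) and -0.25 without B2 (adjusted p 0.242). In either of the last 2 fits group B is 1 library, assumed to vary as A1 and A2 do, so that such an adjusted p, here and for the genes below, describes that library against group A. Ifih1 went the other way, from 35.9 in A1 and 10.9 in A2 to 110 in B1 and 60.3 in B2. The groups did not overlap, and the log2 fold change was 1.86 (adjusted p 0.241, unadjusted p 0.0166, authors' deposited table). Mavs, the adaptor on mitochondria, had 3300, 3902, 3263 and 2677 in A1, A2, B1 and B2, and the kinase Tbk1 had 3870, 4211, 5418 and 4383. Neither pair of groups overlapped, and the log2 fold changes were small, -0.28 for Mavs (adjusted p 0.878) and 0.28 for Tbk1 (adjusted p 0.702, authors' deposited table).

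Receptor genes were present in all libraries, and 0 of 4 passed (unadjusted p of 0.124 or more in the authors' deposited table; 0 of 4 in limma). Ifnar1, a chain of the receptor for type I interferons, had normalized counts of 4988 and 4996 in A1 and A2 and 5307 and 4698 in B1 and B2, with B1 and B2 on either side of group A. Its log2 fold change was 0.0030 (authors' deposited table). Its partner chain Ifnar2 had 985, 1029, 1249 and 1264, higher in both B libraries, with a log2 fold change of 0.32 (adjusted p 0.752, authors' deposited table). For interferon gamma, the receptor chain Ifngr2 had 846, 627, 766 and 1032, which overlapped, and Ifngr1 had group means of 448 and 531.

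Of the STAT and IRF factors, 0 of 8 passed by the authors' DESeq test (2 at an unadjusted p under 0.05) or by limma, and the 3 that form or start the signal were moderately higher in both B libraries without passing. Stat2, a subunit of the complex that binds the ISRE, had normalized counts of 3436 and 3532 in A1 and A2 and 5076 and 4322 in B1 and B2. Its log2 fold change was 0.43 (adjusted p 0.242, unadjusted p 0.0167, authors' deposited table). Irf3, the constitutive factor activated by Tbk1, had 2702, 2373, 3569 and 3143, a log2 fold change of 0.40 (adjusted p 0.353, authors' deposited table). Irf9, which gives the complex its DNA contact, had 1736, 1506, 3946 and 1880. B1 was 2.43 times the mean of group A and B2 1.16 times.

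Irf7, the factor that interferon itself induces, differed most among the factors and rested on 1 library. Normalized counts were 97.6 and 66.2 in A1 and A2 and 822 and 124 in B1 and B2. B1 was 10.04 times the mean of group A and B2 1.51 times, and the log2 fold change of 2.53 had an adjusted p of 0.933 in the authors' deposited table. In limma it was 1.98 (SE 0.85, adjusted p 0.264). With B1 alone as group B it was 3.34 (adjusted p 0.00737), and 0.62 with B2 in its place (adjusted p 0.395).

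The remaining factors did not share one direction. Irf1, a factor induced by interferon gamma, had group means of 2255 and 2145. Irf5, a factor of Toll-like receptor signalling, was lower in both B libraries, with group means of 138 and 108. Irf8, a factor of the myeloid lineage, had 111, 157, 75.2 and 184 in A1, A2, B1 and B2, and Irf2, which competes with Irf1, had 57.1, 60.3, 49.5 and 105. In both genes B2 was the highest library and B1 the lowest.

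The fall of the Ifitm genes was seen in every library of group B. Ifitm1 (ENSMUSG00000025491, chromosome 7, 140967221 to 140969825, mm10) had normalized counts of 7087 and 7863 in A1 and A2 and 2451 and 2661 in B1 and B2. Group B was at 0.342 times group A, with a log2 fold change of -1.55 and an adjusted p of 2.15e-13 in the authors' deposited table, and limma gave -1.55 (SE 0.12, adjusted p 0.0255). Ifitm2 (ENSMUSG00000060591, chromosome 7, 140954837 to 140955987) had 26695, 29058, 15241 and 16863. Its log2 fold change in that table was -0.80, with an adjusted p of 0.000706 (0.0312 in limma). Ifitm3 (ENSMUSG00000025492, chromosome 7, 141009586 to 141010770) had 11239, 11607, 6930 and 4555, with a wider gap between the B libraries. Its log2 fold change was -0.99 (adjusted p 0.000303, authors' deposited table), and it missed the threshold in limma at -1.02 (SE 0.20, adjusted p 0.066). Without B1 limma gave -1.33 (SE 0.11, adjusted p 0.00964) for Ifitm3 and without B2 -0.72 (SE 0.11, adjusted p 0.0229). Feeder fibroblast sums did not separate the groups, whereas endoderm sums were higher in both B libraries. Of 10 pluripotency markers 7 were lower in both B libraries, against 26% of all genes. The authors' test called 2 of the 10 lower, Utf1 and Lin28a, against 1.92% of all genes, and limma called 1 lower. The part of any of these in the Ifitm values was not tested.

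The 3 genes lie within a cluster of 69.0 kb on chromosome 7 together with Ifitm5, a bone form of the family, and Ifitm6. Both were also lower in both B libraries. Ifitm5 had normalized counts of 149 and 181 in A1 and A2 and 70.6 and 46.1 in B1 and B2 (a log2 fold change of -1.50 at an adjusted p of 0.00882 in the authors' deposited table; limma adjusted p 0.0812), and Ifitm6 had 31.3, 19.8, 11.9 and 17.7. Ifitm5 thus made 4 of 5 genes of the cluster that were called lower by the authors' test. Outside the cluster, Ifitm7 on chromosome 16 was lower in both B libraries, with 135, 154, 91.7 and 88.7. Its log2 fold change was -0.68 (adjusted p 0.587, authors' deposited table). Ifitm10, elsewhere on chromosome 7, overlapped between the groups, with 21.19, 6.921, 13.75 and 26.01 and a log2 fold change of 0.50 there. Of the 12 other genes with a mean of at least 10 within 100 kb of the cluster, 1 was called lower, B4galnt4 (-0.60, adjusted p 0.0327, authors' deposited table; limma adjusted p 0.08), and 0 higher. Their log2 fold changes ran from -1.16 to 0.13 with a median of -0.20, and 6 of the 12 were lower in both B libraries, against 26% of all genes. The survey of neighbours was chosen after the values of the Ifitm genes were seen.

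**Figure D4:**
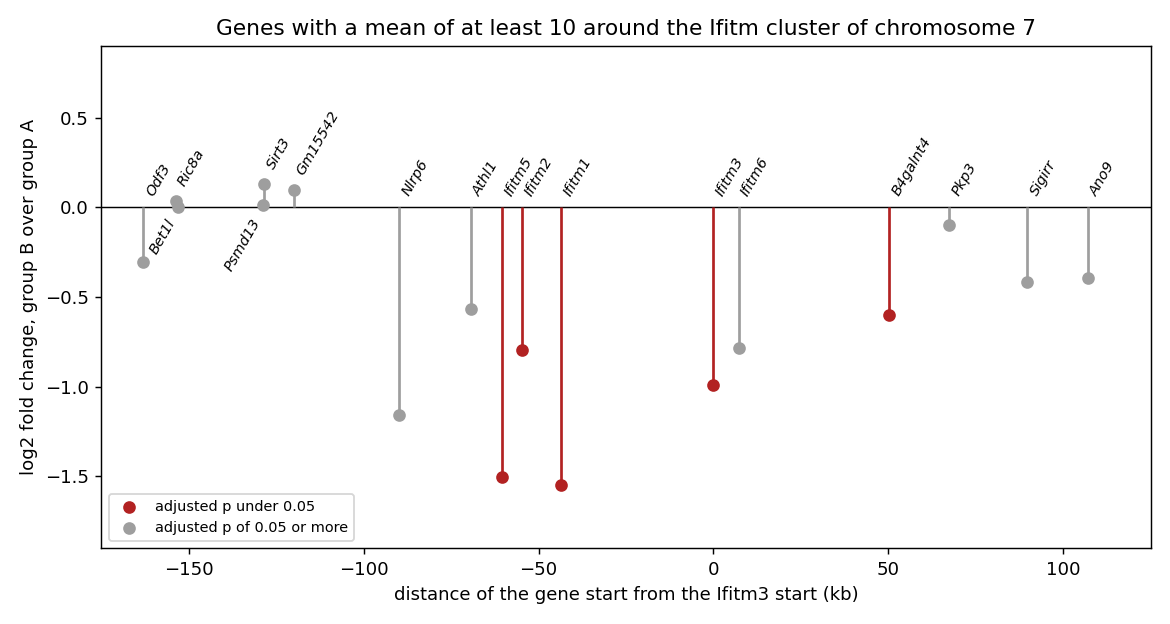
Each stem is a gene with a mean of at least 10 normalized counts, placed by the distance of its start from the Ifitm3 start in kb, with its log2 fold change of group B over group A from the authors' deposited table on the vertical axis. Red marks the 5 genes with an adjusted p under 0.05, of which 4 are Ifitm genes, and no gene shown lies above 0.13.

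Genes with the same response element in the promoter lay on both sides of group A. A promoter is here the window from 250 bases before to 50 after a start site in RefSeq (GRCm38.p6), and 32 of the 36 members matched. The core of the ISRE was searched on both strands as GAAA, any 2 bases and GAAA again, and 13 of the 32 (40.6%) held it, against 3.99% of the 27025 genes in the table. By role these were 9 of 16 effectors, 2 of 8 factors, 2 of 4 sensors and 0 of 4 receptors. The core of the element bound by STAT dimers, TTCNNNGAA, which reads the same on both strands, was found in 13 of the 32, against 9.55% of all genes, and matches of the 2 motifs shared bases in 2 member promoters. ISRE cores were held by 3 of the 6 matched members that were lower in both B libraries, by 5 of the 14 that were higher in both and by 5 of the 12 that overlapped. A match describes letters in this window and not a bound site. The 3 Ifitm windows are given from 250 bases before to 30 after the start, 5′ to 3′ on the strand of the gene, with ISRE cores in capitals, because these genes fell together and their windows differ in this element (chr7:140967826-140968105 plus strand for Ifitm1, chr7:140955932-140956211 minus for Ifitm2, chr7:141010715-141010994 minus for Ifitm3).
Ifitm1: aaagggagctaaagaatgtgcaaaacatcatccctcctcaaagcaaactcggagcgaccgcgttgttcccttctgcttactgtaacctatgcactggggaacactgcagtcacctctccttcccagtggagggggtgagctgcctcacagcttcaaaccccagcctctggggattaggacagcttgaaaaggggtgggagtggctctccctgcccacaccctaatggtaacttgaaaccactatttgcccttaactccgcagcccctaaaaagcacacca
Ifitm2: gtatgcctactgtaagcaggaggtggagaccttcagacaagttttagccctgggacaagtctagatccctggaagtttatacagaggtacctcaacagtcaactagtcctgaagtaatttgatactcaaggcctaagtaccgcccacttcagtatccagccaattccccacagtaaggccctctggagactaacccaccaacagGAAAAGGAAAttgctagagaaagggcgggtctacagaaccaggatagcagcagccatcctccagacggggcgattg
Ifitm3: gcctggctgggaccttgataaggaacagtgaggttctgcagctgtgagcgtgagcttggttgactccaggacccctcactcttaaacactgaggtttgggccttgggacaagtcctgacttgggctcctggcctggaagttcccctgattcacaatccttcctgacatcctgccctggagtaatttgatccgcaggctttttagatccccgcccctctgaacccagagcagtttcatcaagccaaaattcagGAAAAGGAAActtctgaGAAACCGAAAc
Ifitm2 holds 1 core, 46 bases before the start, Ifitm3 holds 2, both just after it, and the window of Ifitm1 holds none. The Ifitm1 window is set on a start inside the gene, whose first base is at 140967221, and the sequence around that base was not searched.

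Among the other 17 effectors none was called in either direction by the authors' test or by limma, 4 had an unadjusted p under 0.05 in the authors' deposited table and every log2 fold change there was above 0, from 0.20 to 3.29. Of all genes 5.11% were higher at that unadjusted p. In 9 of the 17 B1 and B2 were each higher than A1 and A2, against 26.4% of all genes, and the other 8 overlapped. The 3 Ifitm genes, left out of these counts, went the other way. The median log2 ratio to the mean of group A was 1.35 for B1 and 0.46 for B2.

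Isg15, the ubiquitin-like protein that interferon induces, and the Ifit genes, which bind foreign RNA, were higher in both B libraries. Isg15 (chromosome 4) had normalized counts of 291 and 136 in A1 and A2 and 707 and 452 in B1 and B2. The log2 fold change was 1.44 (adjusted p 0.166, unadjusted p 0.0093, authors' deposited table), and limma gave 1.498 (SE 0.42, adjusted p 0.128). Ifit3 (chromosome 19) had 180, 79.1, 511 and 283, a log2 fold change of 1.62 (adjusted p 0.279, authors' deposited table). Within group A, A1 was 2.13 times A2 for Isg15 and 2.27 times for Ifit3. Ifit1 had 186, 69.2, 255 and 240 in A1, A2, B1 and B2, so A1 was 2.69 times A2. In limma the log2 fold change of Ifit1 was 1.12 with all libraries, 0.41 without A2 and 1.82 without A1. Ifit2 had group means of 87.2 and 121. Ifit3 and Ifit1 have near copies in the same table (Ifit3b and Ifit1bl1), and how reads shared by copies were counted is not given, so these values are uncertain.

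The windows of Isg15, Ifit3 and Bst2 are shown in the same way as those of the Ifitm genes, since their cores are close in sequence while the direction of their log2 fold changes, none past the test, was the opposite (chr4:156200789-156201068 minus strand, chr19:34583279-34583558 plus and chr8:71537443-71537722 minus). For Bst2 that direction rested on B1, at 2.56 times the mean of group A, whereas B2 was at 0.90 times.
Isg15: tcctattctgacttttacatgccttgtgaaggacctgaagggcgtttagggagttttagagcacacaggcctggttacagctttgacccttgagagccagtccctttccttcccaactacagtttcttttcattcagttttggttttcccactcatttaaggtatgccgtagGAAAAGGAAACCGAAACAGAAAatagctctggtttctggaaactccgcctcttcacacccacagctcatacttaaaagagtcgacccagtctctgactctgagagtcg
Ifit3: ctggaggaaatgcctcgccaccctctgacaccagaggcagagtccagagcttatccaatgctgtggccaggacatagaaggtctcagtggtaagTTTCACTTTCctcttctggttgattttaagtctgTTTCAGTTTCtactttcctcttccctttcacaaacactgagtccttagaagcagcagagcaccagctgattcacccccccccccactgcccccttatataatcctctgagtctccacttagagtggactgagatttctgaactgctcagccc
Bst2: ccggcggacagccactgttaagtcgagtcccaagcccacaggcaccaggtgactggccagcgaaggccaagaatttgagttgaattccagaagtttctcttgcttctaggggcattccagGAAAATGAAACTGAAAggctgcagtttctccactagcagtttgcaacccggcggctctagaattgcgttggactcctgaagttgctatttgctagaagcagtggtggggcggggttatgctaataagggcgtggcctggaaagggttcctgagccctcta
Isg15 holds 3 overlapping cores, the first base of the outermost lying 78 bases before the start. Ifit3 holds 2 separate cores on the other strand, 156 and 122 bases before it, and Bst2 holds 2 overlapping ones. The first core of Isg15, GAAAAGGAAA, is letter for letter the core of Ifitm2 and the first core of Ifitm3.

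Isg20 and the Mx genes were also higher in both B libraries. Isg20, an exonuclease that degrades RNA, had normalized counts of 204 and 306 in A1 and A2 and 473 and 763 in B1 and B2, so B2 was the higher. Its log2 fold change was 1.28 (adjusted p 0.246, unadjusted p 0.0172, authors' deposited table). In limma it was 1.61 with B2 alone as group B (adjusted p 0.0455) and 0.92 with B1 in its place (adjusted p 0.152). Mx1 had 6.45, 4.94, 26.6 and 18.9, and the fold rests on few reads. Mx2, which the table types as a polymorphic pseudogene, had 49.7, 18.8, 135 and 57.9. The log2 fold changes of 2.00 for Mx1 and 1.49 for Mx2 had adjusted p-values of 0.497 and 0.719 (authors' deposited table).

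Usp18, the protease that removes Isg15 from proteins and damps the interferon receptor, showed the widest gap between the B libraries. Normalized counts were 81.1 and 45.5 in A1 and A2 and 1148 and 92.2 in B1 and B2. B1 was 18.1 times the mean of group A and 12.4 times B2, whereas B2 was 1.46 times the mean of group A. The log2 fold change of 3.29 had an adjusted p of 0.95 in the authors' deposited table and was 2.41 (SE 1.12, adjusted p 0.298) in limma. With B1 alone as group B limma gave 4.22 (adjusted p 0.00616), and 0.59 with B2 in its place (adjusted p 0.494). Oasl2, of the oligoadenylate synthetase family, had the same form, with 91.2, 46.5, 457 and 94.6 in A1, A2, B1 and B2 (a log2 fold change of 2.00 at an adjusted p of 0.948 in the authors' deposited table).

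In a further set of effectors, B1 was high and B2 lay below both A libraries. Bst2 had normalized counts of 6378 and 6724 in A1 and A2 and 16749 and 5900 in B1 and B2. Oas1a, a sensor of double-stranded RNA that activates RNase L, had 4749, 3705, 12467 and 3261. Xaf1, a gene of apoptosis, had 5117, 4460, 12719 and 3946. Eif2ak2, the kinase PKR that stops translation, had 3901, 2709, 6465 and 2472, Adar, which edits double-stranded RNA, had 5122, 5412, 9479 and 4854, and Parp14, an ADP-ribosyltransferase, had 382, 422, 665 and 262. For these 6 genes B1 was 1.65 to 2.95 times the mean of group A and B2 0.652 to 0.922 times. Rsad2 (viperin), with 47.9, 20.8, 72.4 and 43.7, and Ifi35, with 384, 261, 557 and 348, were highest in B1 with B2 inside the range of group A. In limma with B1 alone as group B, 8 of the 36 members were called higher (Adar, Bst2, Irf7, Irf9, Oas1a, Oasl2, Usp18 and Xaf1), where 2.69% of all genes were, and 3 lower (the Ifitm genes), where 2.74% were. With B2 alone 1 member, Isg20, was called higher, a share near the 2.17% of all genes, and 4 lower (the 3 Ifitm genes and Ddx58), against 2.7%. Oas1a has a close relative, Oas1g, with 1490, 1224, 5035 and 988, and reads may have been shared between them.

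The other genes of the pathway were read from lists in the same table. Of 21 interferon genes, 12, Ifnb1 among them, had no count in any library, none reached a mean of 10, and the highest value in 1 library was 8.28 normalized counts, of Ifnk in B2. These are reported only as listed at 0, since a gene that is not counted is listed so too. Of 22 further genes of receptor and JAK-STAT signalling, the authors' test called 2 higher and 0 lower, against 1.54% and 1.92% of all genes. These were Il10rb, a receptor chain for interferon lambda and interleukin 10, with 162, 147, 330 and 325 in A1, A2, B1 and B2 (adjusted p 0.00983), and the lymphoid factor Irf4, with 15.7, 22.7, 66.0 and 86.3 (adjusted p 0.0223); limma called neither. The 2 highest of this list per kilobase of exon, Pias2 and Irf2bpl, had log2 fold changes of -0.14 and 0.41, with a median of 0.08 over the 22 (authors' deposited table). In 7 of the 22 both B libraries were higher than both A libraries, against 26.4% of all genes. In 5 both were lower, against 26%.

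Of 36 further genes of nucleic acid sensing 0 were called by the authors' test or by limma. By the authors' test 2 were lower and 0 higher at an unadjusted p under 0.05, against 5.41% and 5.11% of all genes. The list had a median log2 fold change of 0.02 (authors' deposited table). The highest per kilobase of exon, Dhx9 and Ddx41, had log2 fold changes of -0.03 and 0.15 (authors' deposited table). Ddx3x is among 4 genes of this list at 0 in every library and is an RNA helicase that most cells express, so these are reported only as listed at 0.

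A list of 78 further interferon-stimulated genes repeated the pattern of the members in other genes, and like the members it was chosen with earlier results known. Of them 2 were higher, Herc6 (1.93, adjusted p 0.00871) and Shisa5 (0.64, adjusted p 0.0322), and 1 lower, the Ifitm5 described above (authors' deposited table), while limma called 0. Of all genes the authors' test called 1.54% higher and 1.92% lower. At an unadjusted p under 0.05, 8 of the list were higher and 4 lower there, against 5.11% and 5.41% of all genes. Of the 72 with a mean of at least 10, the log2 fold change was above 0 for 60 with a median of 0.78. In 33 of these 72 both B libraries were higher than both A libraries, against 26.4% of all genes. In 8 both were lower, against 26%. Among the 8 was Oas3, with 432 and 537 in A1 and A2 and 328 and 219 in B1 and B2. The median log2 ratio of the 72 to the mean of group A was 1.18 for B1 and 0.17 for B2. B1 was over 2 times B2 in 34, against 4% of all genes, and B2 was over 2 times B1 in 0. The 3 widest such gaps, in Epsti1, Oas2 and Rtp4, were in genes whose groups overlapped. Oas2, an oligoadenylate synthetase, had 772 and 765 in A1 and A2 and 4071 and 168 in B1 and B2. Next came Irgm1, an immunity-related GTPase, with 402 and 187 in A1 and A2 and 4753 and 515 in B1 and B2, and its groups did not overlap. These genes were picked after their values were seen.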

How the data were processed

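The authors' deposited data are 1 table of group means, fold changes and DESeq p-values. Per the submitters' processing notes, which give no versions, the authors used STAR, DESeq and mm10. The read counter, strand setting and annotation were not given in the sources used here. Columns of mean values hold a signal, the normalized count averaged over libraries, per the file headers. The authors' ratio (fold change) is group B over group A, per the file headers, with its log2 and with p-values adjusted by Benjamini-Hochberg over 30237 genes (largest difference from a recomputed adjustment 4.54e-15). Each group mean is a sum of whole reads of 2 libraries times 2 steps, the smallest values of the column. Whole counts were obtained within 1e-06 for every gene above 0, 28616 genes in group A and 28353 in group B. For 1700 and 11 genes a second pair lay within this tolerance, and the closest pair was taken. Size factors computed anew from these counts equalled the steps to within 1.55e-15. The authors' test is the main one; limma 3.58.1 (R 4.3.3, trend, log2(normalized count + 1), two-sided, Benjamini-Hochberg over 20465 genes with a mean of at least 10) is the alternative and gives the standard errors. The added 1 draws fold changes of low genes on that scale towards 0. The limma log2 fold change can still exceed the authors', as for Ifih1 (1.98 against 1.86). For Mx1 it was lower (1.82 against 2.00). The recovery of counts and the limma calls were tested on simulated data with the same spread setting for all genes and libraries. Gaps between libraries as wide as that of Usp18 were not simulated. Members and lists were chosen with earlier results of these data known. Library values are printed for members past 0.05 in either test, with a log2 fold change beyond 1, or among the 3 highest means of a role; other members printed so were chosen after their values were seen. Positions and exon lengths are from GENCODE M21 (mm10). By it 12 of the 36 members share exon bases with another gene, 4 of them on the same strand (Ifnar2, Irf9, Ifitm2 and Parp14), and their counts are less certain.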

Additional observations from a re-analysis of the deposited data

How the results depend on the processing

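The call of 0 members higher and 3 lower held with deposited p-values readjusted over genes with a mean of at least 10 or 50, and with a threshold of 0.1. Limma gave 0 higher and 2 lower (7 and 4 at an unadjusted p under 0.05) with each pseudocount (0.5, 1 and 5) and each scaling (size factors, library totals, upper quartile), and the median log2 fold change of the members lay between 0.39 and 0.44 over all settings with 4 libraries. Ifitm3 missed the threshold in each of these limma settings (adjusted p 0.0573 to 0.067). Leaving out 1 library in limma moved the number of members called higher between 0 and 8, the number lower between 0 and 4, and the median between 0.31 (without B1) and 0.77 (without B2). Without A1 or A2 limma called 0 of 20465 genes, since the spread then comes from B1 and B2 alone, where 3 members were lower at an unadjusted p under 0.05 in each case and 6 (without A1) or 1 (without A2) higher. Over all genes the calls of limma also rose, from 200 higher and 211 lower to 444 and 553 without B1 and to 551 and 560 without B2, fits in which the spread comes from A1 and A2 alone. Without A1 the log2 fold changes of Ifitm1, Ifitm2 and Ifitm3 were -1.62, -0.86 and -1.05 and without A2 -1.47, -0.74 and -1.0001. Bst2 was at 0.60 in limma with all libraries and at -0.15 without B1. No paired analysis was possible because the recovered libraries carry none of the replicate numbers of the labels.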
